A study of Mus musculus with 6 samples.

Results

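Platelet-biased haematopoietic stem cells (HSCs) are HSCs that carry transcripts of the megakaryocyte lineage, the lineage that makes platelets. The 9 genes described here were Clu, Vwf, Selp, Itga2b, Itgb3, Pf4, Gp1bb, Gp9 and Cd9, taken from the 49585 genes counted by matching Ensembl identifiers to these symbols. Clu, Vwf and Selp were selected on their difference in read counts between these same libraries, while the other 6 were chosen for their place in megakaryocytes and platelets. All 9 passed the filter on low counts, which left 14785 genes for testing.

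The libraries came from bulk RNA sequencing of bone marrow HSCs of untreated C57BL/6 mice aged 8 to 16 weeks. Per the labels, cells were sorted as lineage-negative, Kit+ and Sca-1+, and further as CD48-, CD150+, CD34- and CD201+, and were then divided into CD38hi and CD38lo cells, called CD38-positive and CD38-negative below. CD38 is a surface enzyme that consumes NAD. There were 3 CD38-positive and 3 CD38-negative libraries, each from the pooled cells of 10 mice, and the series' design text joins them into 3 pairs without saying whether a pair came from the same mice. Libraries held 16771180 to 18558610 counts, so that a floor of 3 counts corresponds to 0.162 to 0.179 CPM (reads scaled to a common library size). Levels below are CPM on library sizes adjusted by TMM, edgeR's trimmed-mean scaling, and all differences are CD38-positive relative to CD38-negative.

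Platelets form as fragments of megakaryocytes, and part of the HSC pool is known to be primed toward this lineage. Vwf encodes von Willebrand factor, which tethers platelets to damaged vessels, and Selp encodes P-selectin, an adhesion receptor stored in platelet and endothelial granules. Itga2b and Itgb3 encode the 2 chains of the platelet fibrinogen receptor, and Gp1bb and Gp9 encode subunits of the receptor for von Willebrand factor. Pf4 encodes platelet factor 4, a chemokine of platelet granules, and Cd9 encodes a tetraspanin of the cell surface. Clu encodes clusterin, a secreted chaperone that also binds complement proteins, and its transcript is known to mark platelet- and myeloid-biased HSCs, which become more frequent with age.

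Promoter sequences are shown for Selp, one of the genes picked for a difference, and for 4 platelet genes that were not, because megakaryocyte genes are known for binding sites of GATA, ETS and RUNX factors near their start. The 250 bases before each RefSeq start on GRCm38.p6 were searched on both strands, and capitals mark each match. For GATA factors the words searched were AGATAA and, as a second spelling of the same site, TGATAA. Other spellings, such as AGATAG and TGATAG, were not searched. For ETS factors they were GGAAGT and, with the base before the core, CGGAAG, and for RUNX factors the word was TGTGGT. No matches overlapped.
Selp, chr1:164115014-164115263, plus strand: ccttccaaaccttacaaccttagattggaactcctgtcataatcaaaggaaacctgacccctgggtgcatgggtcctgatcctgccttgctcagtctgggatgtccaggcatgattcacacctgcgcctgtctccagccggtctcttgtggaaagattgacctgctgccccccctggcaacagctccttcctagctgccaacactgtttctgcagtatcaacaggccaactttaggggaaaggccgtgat
Itga2b, chr11:102469884-102470133, minus strand: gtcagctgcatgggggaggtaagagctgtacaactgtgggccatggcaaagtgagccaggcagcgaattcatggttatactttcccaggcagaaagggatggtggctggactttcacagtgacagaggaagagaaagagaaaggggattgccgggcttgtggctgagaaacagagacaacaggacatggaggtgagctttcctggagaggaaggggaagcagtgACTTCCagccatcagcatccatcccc
Gp9, chr6:87777820-87778069, plus strand: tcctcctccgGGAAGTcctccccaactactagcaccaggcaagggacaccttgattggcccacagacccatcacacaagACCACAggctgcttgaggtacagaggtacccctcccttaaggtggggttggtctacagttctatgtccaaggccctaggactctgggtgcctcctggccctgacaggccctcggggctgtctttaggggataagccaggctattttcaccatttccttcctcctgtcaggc
Gp1bb, chr16:18622404-18622653, minus strand: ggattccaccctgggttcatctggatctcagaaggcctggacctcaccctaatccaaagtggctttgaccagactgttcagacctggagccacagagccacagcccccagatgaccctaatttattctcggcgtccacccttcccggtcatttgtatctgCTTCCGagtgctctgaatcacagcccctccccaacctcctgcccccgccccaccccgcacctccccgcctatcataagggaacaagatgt
Pf4, chr5:90772185-90772434, plus strand: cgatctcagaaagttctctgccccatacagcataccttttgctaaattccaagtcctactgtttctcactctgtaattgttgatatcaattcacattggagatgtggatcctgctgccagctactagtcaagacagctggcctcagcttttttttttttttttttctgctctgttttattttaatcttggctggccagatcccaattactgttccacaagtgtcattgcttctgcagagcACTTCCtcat
RefSeq entries were matched for 6 of the 9 genes; Clu, Vwf and Itgb3 were not matched. An ETS word was present before Itga2b, Gp9, Gp1bb and Pf4, which is 4 of the 6 promoters, and in 27.2% of 32851 mouse promoter windows of the same length. The words closest to the start lay 10 to 5 bases before that of Pf4 and 26 to 21 bases before that of Itga2b. The word before Gp1bb lay 90 to 85 bases away, and the word before Gp9 lay 240 to 235 bases away. A RUNX word was present before Gp9, in 1 of the 6, against 14.0% of all windows. The GATA words searched were present in 0 of the 6, against 16.6% of all windows. TGATAG, a spelling that was not searched, lies before Gp1bb, where it reads ctatca on the printed strand. Neither Selp nor Cd9 held any of the words searched in its window. The window before Itga2b follows the RefSeq start and lies largely inside the longer span that GENCODE gives this gene. These matches describe letters and not binding.

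Clu was the member with the widest gap between the populations. Clu (ENSMUSG00000022037, GRCm38 chromosome 14, 65968483 to 65981547, plus strand) was at 37.5, 57.8 and 66.3 CPM in CD38-positive replicates 1, 2 and 3, and at 14.9, 20.3 and 17.7 CPM in their CD38-negative partners. Every CD38-positive library lay above every CD38-negative one. Its fitted log2 difference was 1.58 (SE 0.22), or 2.99-fold, and the paired log2 differences were 1.33, 1.5 and 1.90.

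Vwf ranked the 3 CD38-positive libraries as Clu did. Vwf (ENSMUSG00000001930, chromosome 6, 125546774 to 125686679, plus strand) was at 28.1, 43.6 and 59.9 CPM in CD38-positive and at 15.8, 24.4 and 17.5 CPM in CD38-negative replicates 1, 2 and 3. The groups did not overlap, and the highest CD38-negative library, of pair 2, lay close to the lowest CD38-positive one, of pair 1. On the log2 scale this was a fitted difference of 1.15 (SE 0.24), or 2.21-fold, with paired differences of 0.82, 0.84 and 1.77.

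Selp was the least abundant of these 3 genes in CPM. Selp (ENSMUSG00000026580, chromosome 1, 164115264 to 164150026, plus strand) was at 10.4, 12.6 and 19.4 CPM in CD38-positive and at 7.21, 7.0 and 6.36 CPM in CD38-negative replicates. The 3 CD38-negative libraries lay close together, with an SD of 0.442 CPM (n = 3), and all 3 CD38-positive libraries lay above them. The fitted log2 difference was 0.99 (SE 0.29), or 1.99-fold, with paired differences of 0.52, 0.83 and 1.59. Without pair 3 it was 0.68. Antisense or opposite-strand transcripts of Gm16587 and Gm16548 share 186 and 438 exon bases with Selp, and the strand setting of the counting was not given in the sources used here.

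These values are a description and not a test, because Clu, Vwf and Selp were picked for this contrast. For each of the 3 the largest paired difference was in pair 3 and the smallest in pair 1. In edgeR's quasi-likelihood test with the pair as a block, 1 of the 9 members, Clu, passed an adjusted p-value of 0.05, beside 2 of all 14785 genes tested (0.0135%), of which 1 was higher (0.00676%). Nothing is read from that count, since the contrast had chosen the gene. It was 0 without the replicate block and 0 without pair 1, and it was 2, Clu and Vwf, without pair 2 and in DESeq2. Libraries did not overlap between the populations for 3 of the 9 members, all picked and all higher, beside 6.53% of all genes tested in either direction and 3.33% in this one.

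**Figure D1:**
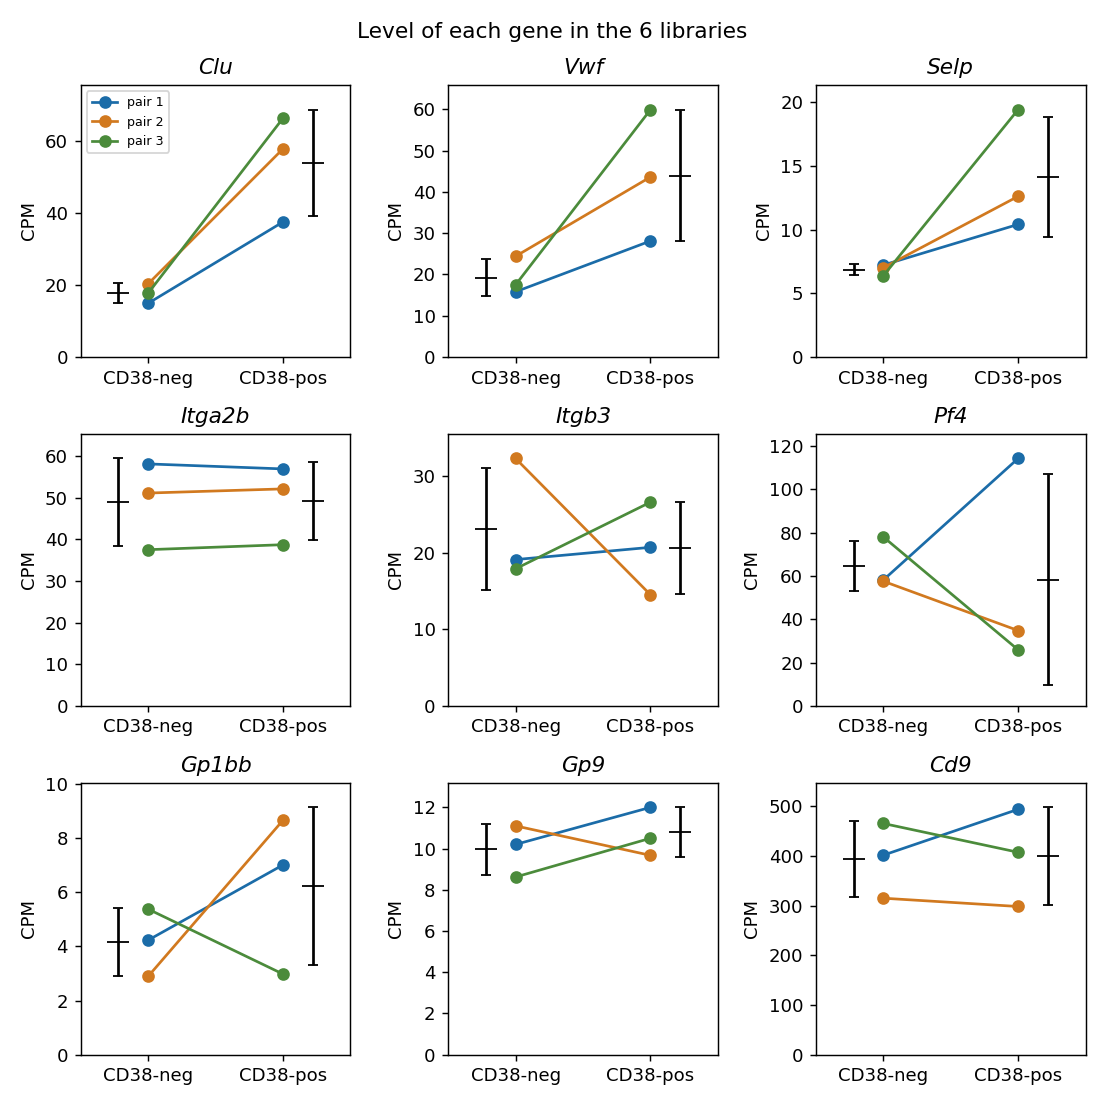
Level of each of the 9 genes in the 6 libraries, in CPM on linear axes that start at 0. Each coloured line joins the libraries of a pair, and black bars give the mean and SD of each population (n = 3). The 3 lines rise together for Clu, Vwf and Selp, from at most 20.3, 24.4 and 7.21 CPM to at least 37.5, 28.1 and 10.4 CPM, and they cross or lie flat for the other 6 genes.

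The fibrinogen receptor chains did not share this pattern. Itga2b (ENSMUSG00000034664, chromosome 11, 102453297 to 102470122, minus strand), the alpha chain CD41 and an early megakaryocyte marker, was at 56.9, 52.1 and 38.7 CPM in CD38-positive and at 58.1, 51.1 and 37.5 CPM in CD38-negative replicates 1, 2 and 3. The pairs differed from each other more than the libraries within them, and the paired log2 differences were -0.03, 0.03 and 0.04. The fitted log2 difference was 0.01 (SE 0.19, and adjusted p = 0.994 in edgeR), with a 95% interval from -0.40 to 0.42, or 0.76-fold to 1.34-fold. Its sign depended on the setting.

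Itgb3, the beta chain of that receptor, varied between pairs. Itgb3 (ENSMUSG00000020689, chromosome 11, 104608000 to 104670476, plus strand) was at 20.7, 14.5 and 26.6 CPM in CD38-positive and at 19.1, 32.3 and 17.9 CPM in CD38-negative replicates. The lowest and the highest library were the 2 of pair 2, and the groups overlapped. For Itgb3 the fitted log2 difference was -0.14 (SE 0.30, and adjusted p = 0.966 in edgeR), with a 95% interval from -0.79 to 0.50 and paired differences of 0.12, -1.15 and 0.57. Without pair 2 it was 0.34. Itgav, whose product also pairs with the beta chain, had paired differences of 0.39, -1.04 and 0.32.

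The subunits of the receptor for von Willebrand factor differed among themselves. Gp9 (ENSMUSG00000030054, chromosome 6, 87778072 to 87779768, plus strand) was at 12, 9.67 and 10.5 CPM in CD38-positive and at 10.2, 11.1 and 8.62 CPM in CD38-negative replicates. The groups overlapped, and Gp9 had the smallest spread of the 9 genes, with its highest library 1.40-fold above its lowest. The fitted log2 difference was 0.11 (SE 0.26, and adjusted p = 0.967 in edgeR), with a 95% interval from -0.45 to 0.67 and paired differences of 0.24, -0.19 and 0.29.

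Gp1bb was the member with the fewest reads. Gp1bb (ENSMUSG00000050761, chromosome 16, 18620317 to 18622403, minus strand) was at 7.01, 8.66 and 2.98 CPM in CD38-positive and at 4.23, 2.89 and 5.38 CPM in CD38-negative replicates, from 52 to 153 reads. It was higher in the CD38-positive library of pairs 1 and 2 and lower in that of pair 3. Its fitted log2 difference was 0.51 (SE 0.42, and adjusted p = 0.932 in edgeR), with a 95% interval from -0.39 to 1.40. It was -0.05 without pair 2 and 1.15 without pair 3. Its value is uncertain for a second reason, because 1902 of its 2087 exon bases also belong to Sept5 on the same strand.

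The remaining subunits, Gp1ba and Gp5, are named because they complete the complex. Gp1ba, which carries the binding site for von Willebrand factor, was at 3.27 ± 1.96 (SD, n = 3) CPM across CD38-positive and 3.33 ± 1.18 (SD, n = 3) CPM across CD38-negative libraries. Gp5 averaged 18.1 ± 6.82 (SD, n = 3) and 17.2 ± 2.72 (SD, n = 3) CPM, with a fitted log2 difference of 0.01 (adjusted p = 0.998 in edgeR). Scaled by exon length, in CPM per kb, the levels of Gp1ba, Gp1bb, Gp5 and Gp9 in CD38-negative libraries were 1.22, 2.0, 7.85 and 11.3. In CD38-positive libraries they were 1.20, 2.98, 8.22 and 12.2. The libraries of Gp1ba and Gp1bb overlapped in both populations, those of Gp1bb lay below those of Gp5 in both, and those of Gp5 and Gp9 overlapped in CD38-positive cells only.

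Pf4 was the member with the widest spread within a population. Pf4 (ENSMUSG00000029373, chromosome 5, 90772435 to 90773383, plus strand) was at 114, 34.8 and 25.9 CPM in CD38-positive and at 58.1, 57.6 and 78.1 CPM in CD38-negative replicates. The CD38-positive libraries held both the highest value, in pair 1, and the 2 lowest. Over the 3 pairs the fitted log2 difference was -0.46 (SE 0.36, and adjusted p = 0.932 in edgeR), with a 95% interval from -1.23 to 0.31 and paired differences of 0.97, -0.73 and -1.59. It was 0.13 without pair 3 and -1.16 without pair 1, and -0.15 without the replicate block. Ppbp, a platelet granule chemokine gene named here for its likeness to Pf4, also had its highest value in the CD38-positive library of pair 1, at 47.6 CPM against 1.64 to 8.63 CPM in the other 5. That library also had the highest summed level of the 10 erythroid markers, at 9354 CPM, and of the 14 granulocyte and monocyte markers. Their part in the Pf4 values was not tested.

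Cd9 was the most abundant member. Cd9 (ENSMUSG00000030342, chromosome 6, 125460266 to 125494791, minus strand) was at 494, 298 and 407 CPM in CD38-positive and at 401, 315 and 465 CPM in CD38-negative replicates. The groups overlapped over nearly their whole ranges. For Cd9 the fitted log2 difference was 0.01 (SE 0.20, and adjusted p = 0.996 in edgeR), with a 95% interval from -0.41 to 0.43, or 0.751-fold to 1.35-fold, and a sign that depended on the setting. Gm26728, on the opposite strand, shares 218 exon bases with Cd9 and had 5263 reads over the 6 libraries.

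The 9 genes did not move together. In pairs 1, 2 and 3 the CD38-positive library was the higher one for 8, 5 and 6 of them. The shares of all genes tested were 50.3%, 48.7% and 52.6%, and the 3 picked genes were higher in every pair. Of the 6 members not picked for a difference, 5, 2 and 3 were higher, and their median paired differences were 0.27, -0.14 and -0.08, beside 0.00, -0.02 and 0.03 for all genes tested. Of these 6 genes, 0 passed an adjusted p-value of 0.05 in edgeR, 0 had an unadjusted p-value under 0.05 and 0 passed in DESeq2. Over all genes tested in edgeR, 0.0135% passed the adjusted threshold and 5.08% had an unadjusted p-value under 0.05, so 0 of 6 lies near these shares. The median fitted log2 difference of the 6 was 0.01, and that of all genes tested was 0.00. Of the 6, 0 were higher in all 3 pairs, beside 13.2% of all genes, and 0 were lower in all 3, beside 11.3% of all genes.

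**Figure D2:**
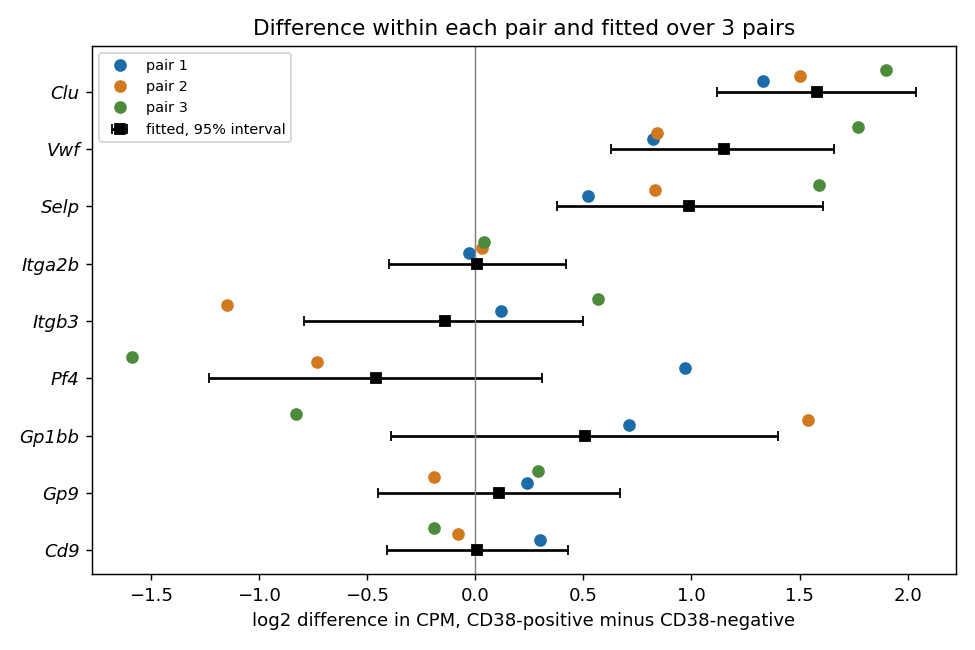
Log2 difference in CPM of each gene, CD38-positive minus CD38-negative, on the x axis. Coloured points are the 3 pairs, and black squares with bars are the fitted log2 fold changes with their 95% intervals. The points of Clu, Vwf and Selp lie between 0.52 and 1.90, those of Itga2b between -0.03 and 0.04, and those of Pf4 between -1.59 and 0.97.

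Likeness of pattern over the 6 libraries was measured as the root mean square distance between centred log2 CPM profiles, among 13266 other genes with a mean of at least 20 counts. The gene nearest to Clu was Vwf, at a distance of 0.247, and Selp was at rank 7. From Vwf, Selp was at rank 8 and Clu at rank 12. From Selp, Vwf was at rank 18 and Clu at rank 134. Since all 3 were picked for a difference between the same libraries, nearness among them is a description. Seen from Clu, the other 6 members stood at ranks 3779 (Gp9), 7243 (Gp1bb), 7715 (Itga2b), 8013 (Cd9), 8596 (Itgb3) and 13043 (Pf4). The rank of Pf4 is 98.3% of the way down the ranked genes.

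After Vwf, the genes nearest to Clu were Pam, Ttc23, Gkn3 and Ramp2, at distances from 0.274 to 0.341. Ramp2, the partner of the adrenomedullin receptor in endothelium, was at 2.40, 6.28 and 4.97 CPM in CD38-positive and 0.655, 1.22 and 0.978 CPM in CD38-negative replicates 1, 2 and 3. Among the 5 genes nearest to Vwf were Rdh10, Ttc23, Jam2 and Pygm. Jam2, a junctional adhesion molecule, was at 12.5, 19.4 and 31.9 CPM in CD38-positive and 7.5, 11.1 and 11.9 CPM in CD38-negative replicates. The 5 nearest to Selp were Gpr34, Bcl3, Gm13127, Stab2 and Rhoj. Gpr34 was at 5.04, 6.05 and 8.77 CPM and at 3.51, 2.95 and 2.51 CPM. Of these genes, 0 other than Clu passed the adjusted threshold in edgeR, where the smallest adjusted p-value among the rest was 0.125, for Ramp2, and Vwf and Ramp2 passed in DESeq2. Genes chosen for likeness to Clu, Vwf and Selp share their difference by construction, so these p-values are a description.

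Itga2b and Cd9 had other neighbours. The 5 genes nearest to Itga2b were Cd2bp2, Wdr46, Smarca4, Palb2 and Nsd2, at distances from 0.01 to 0.064. Smarca4, a chromatin remodelling enzyme, was at 90.2, 89.9 and 69.8 CPM in CD38-positive and 95.6, 84.3 and 64.4 CPM in CD38-negative replicates. Those nearest to Cd9 were Trappc2, Lsp1, Ints8, Gm15446 and Zscan29. A profile with little variation has many near neighbours, so that these distances are smaller than those of Clu. Gp9 was the member nearest to Itga2b, at rank 984, and Clu stood at rank 12906.

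**Figure D3:**
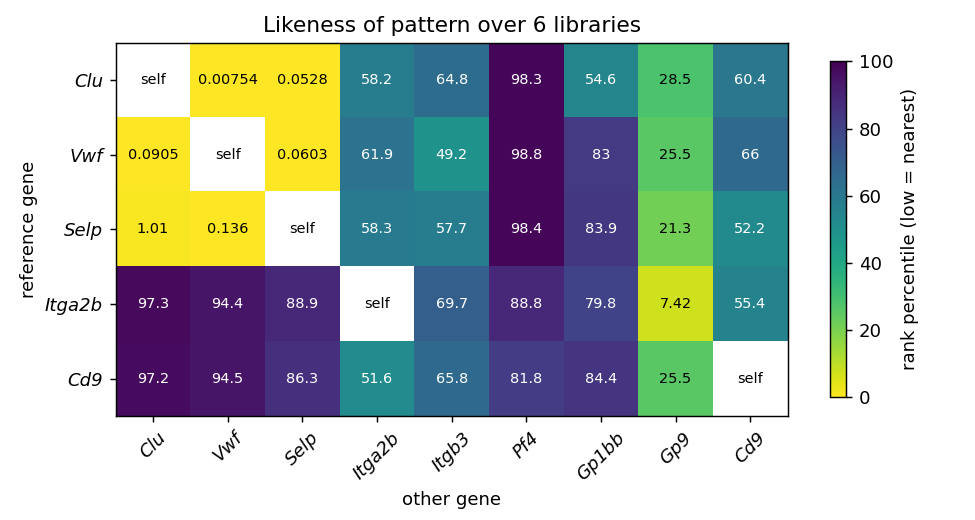
Rank percentile of each member (columns) by distance of its pattern over 6 libraries from that of 5 reference members (rows), among 13266 genes, where low values are near. Clu, Vwf and Selp stand within 1.01% of each other, and Pf4 stands at 98.3% to 98.8% as seen from them.

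Levels of different genes were compared per kb of exon. In CD38-negative libraries the order was Cd9 (193 ± 36.9 CPM per kb, SD, n = 3), Pf4 (89.6), Gp9 (11.3), Itga2b (8.97), Clu (5.14), Itgb3 (3.91), Gp1bb (2.0), Selp (1.55) and Vwf (1.20). Neighbours whose libraries overlapped were Gp9 and Itga2b, Clu and Itgb3, Gp1bb and Selp, and Selp and Vwf. In CD38-positive libraries Cd9 was at 196 and Pf4 at 80.9 CPM per kb, with overlapping libraries, and Clu came next at 15.7 ± 4.30 CPM per kb (SD, n = 3). Its libraries overlapped those of Gp9 at 12.2. Itga2b followed at 9.02, apart from both of its neighbours. Itgb3, Selp, Gp1bb and Vwf came last, at 3.50, 3.20, 2.98 and 2.73, and each overlapped the next. In bulk samples, fewer cells of a type and less RNA per cell cannot be told apart.

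Other genes of the platelet pathway were then examined, in 4 lists with 59 genes besides the members. Of the 57 tested, 0 passed the adjusted threshold in edgeR and 1, Sparc, in DESeq2, while 26 had higher and 31 lower fitted values in CD38-positive cells. Their median log2 fold change was -0.04, beside 0.00 for all genes. Unadjusted p-values under 0.05 were found for 3 on the higher and 2 on the lower side, beside 5.08% of all genes in either direction.

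Among receptors that bind von Willebrand factor, P-selectin or collagen, and their partners, 6 of 8 genes were tested, and 0 had an unadjusted p-value under 0.05 or passed in edgeR or DESeq2. Their median was -0.05, with 0.23 without pair 2 and -0.34 without pair 1. Selplg, which encodes the ligand of P-selectin, was the most abundant, at 216 and 191 mean CPM in CD38-positive and CD38-negative libraries, with a fitted log2 difference of 0.17. Among 20 granule and cytoskeleton genes the median was 0.06 (-0.01 without pair 1 and without pair 3), 13 had higher values, and 2 on the higher and 1 on the lower side had an unadjusted p-value under 0.05. Sparc, a matrix protein gene also expressed by stroma, was at 15.2, 7.47 and 9.05 CPM in CD38-positive and 7.03, 1.39 and 2.14 CPM in CD38-negative replicates, with a fitted log2 difference of 1.82 (adjusted p = 0.125 in edgeR). F13a1, coagulation factor XIII, had 0.55 (adjusted p = 0.925 in edgeR). Mmrn1, multimerin of platelet granules and chosen here after its values were seen, had -0.80 (adjusted p = 0.925 in edgeR), with paired differences of -0.56, -2.10 and 0.22. The 2 most abundant were Srgn, a granule proteoglycan, at -0.25, and Fermt3, an integrin activator, at 0.03.

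Among 17 platelet signalling genes 0 passed in edgeR or DESeq2 and 0 had an unadjusted p-value under 0.05 (median -0.01). Cd63, a tetraspanin of platelet granules and one of the most abundant genes of the list, had a fitted log2 difference of -0.18. Of 15 megakaryocyte regulators, most of them transcription factors, 13 had lower fitted values, with a median of -0.25. Of all 14785 genes tested, 7381 had lower fitted values. Only 4 of the 15 regulators were lower in all 3 pairs, beside 11.3% of all genes. The pair medians were -0.11, -0.27 and 0.03, and without pair 2 the median was -0.09. None of them passed in edgeR or DESeq2, and 2 had an unadjusted p-value under 0.05, in opposite directions. Fhl1, a LIM domain gene chosen here after its values were seen, had a fitted log2 difference of 0.70 (adjusted p = 0.925 in edgeR), with paired differences of -0.11, 1.04 and 1.13. Meis1, a homeobox factor of HSCs, had a fitted log2 difference of -0.63 (adjusted p = 0.925 in edgeR), with paired differences of -0.66, -1.22 and -0.01. Nfe2, a factor of late megakaryocytes, had -0.16.

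A list of 30 genes associated with aged HSCs contains 6 of the members. Without those 6, 24 genes were tested, with a median log2 fold change of 0.27, 14 higher and 10 lower. Of these, 0 passed the adjusted threshold in edgeR or DESeq2, and 6 on the higher and 1 on the lower side had an unadjusted p-value under 0.05, beside 2.47% and 2.61% of all genes. One of the higher genes was Cd38, on whose product the cells were sorted, and without it 5 were higher and the median was 0.26. The count on the higher side with Cd38 was 9 without pair 2, 2 without pair 3 and 4 without the replicate block. The pair medians were 0.21, -0.05 and 0.48. Jam2, given above with the neighbours of Vwf, had a fitted log2 difference of 0.99 (adjusted p = 0.695 in edgeR) and was higher in 3 of 3 pairs. Plscr2, a phospholipid scramblase gene, was at 6.47, 6.39 and 13.8 CPM in CD38-positive and 9.29, 11.7 and 26.1 CPM in CD38-negative replicates, a fitted log2 difference of -0.77 (adjusted p = 0.925 in edgeR). Sult1a1, the most abundant after Cd9, had 0.22.

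Receptors and partners of clusterin, with other extracellular chaperones, made up a list of 15 genes. Of the 12 tested, 0 passed in edgeR or DESeq2 and 1 had an unadjusted p-value under 0.05, and the median was 0.04 (-0.02 without pair 1). Vldlr, a lipoprotein receptor able to bind clusterin, was at 4.80, 5.09 and 7.78 CPM in CD38-positive and 11.4, 11.2 and 12.3 CPM in CD38-negative replicates. These groups did not overlap, in the direction opposite to Clu, with a fitted log2 difference of -1.01 (SE 0.27, and adjusted p = 0.764 in edgeR). The most abundant were Hspa5 and Hp, at 0.05 and 0.23.

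**Figure D4:**
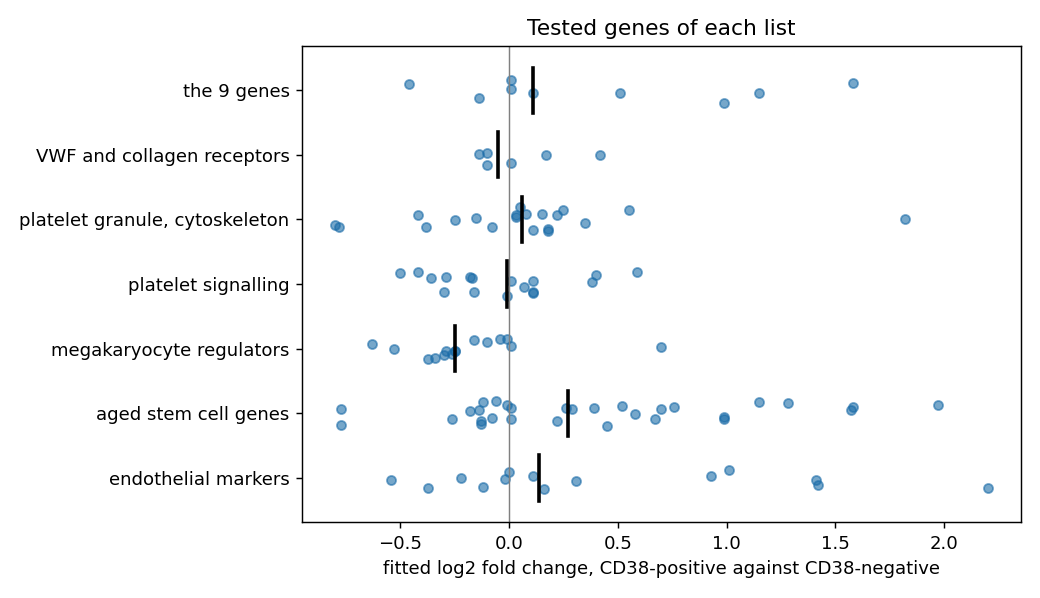
Fitted log2 fold change of each tested gene in 7 lists, with the median of each list as a black bar. Medians run from -0.25 for megakaryocyte regulators to 0.27 for aged stem cell genes, and the 9 genes described here have a median of 0.11 with Clu, Vwf and Selp at the right.

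Vwf, Selp and Clu are also transcribed in endothelium, and the libraries were therefore examined for markers of other cells. The 10 genes on the HSC list other than Cd34, Cd38 and Cd48 were all detected. Cd34 and Cd48, whose products the sort selected against, averaged 246 and 85.7 CPM in CD38-positive and 237 and 77.5 CPM in CD38-negative libraries. The most abundant transcript was S100a8 of neutrophils. The 14 granulocyte and monocyte markers summed to 81262 to 178186 CPM in CD38-positive and 87257 to 140616 CPM in CD38-negative libraries. Of 17 endothelial markers 14 were tested, 9 had higher fitted values, 0 passed in edgeR, 4 had an unadjusted p-value under 0.05, and 1, Ramp2, passed in DESeq2. The summed level of the 17 was 362 to 673 CPM in CD38-positive and 456 to 659 CPM in CD38-negative libraries, with a median log2 fold change of 0.14, which was -0.06 without pair 3 and 0.39 without pair 1. None of the 12 defining endothelial markers was at 0 in every library, but Cdh5, vascular cadherin, had only 12, 5 and 5 reads in CD38-positive and 6, 2 and 0 reads in CD38-negative replicates. Mmrn2 had 9, 25 and 21 reads against 3, 0 and 0.

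Several low endothelial markers had fitted values in the direction of Clu, Vwf and Selp. Cldn5, a tight junction gene, was at 7.31, 10.2 and 18.4 CPM in CD38-positive and 1.43, 4.67 and 9.48 CPM in CD38-negative replicates, with a fitted log2 difference of 1.42 (adjusted p = 0.451 in edgeR). Stab2, a scavenger receptor of sinusoids, was at 3.36, 4.19 and 5.74 CPM against 2.20, 2.0 and 2.63 CPM, with 0.93 (adjusted p = 0.925 in edgeR). Ramp2 had 2.20 (adjusted p = 0.125 in edgeR). Of the 9 defining markers tested, 4 had an unadjusted p-value under 0.05, beside 5.08% of all genes. The 12 defining markers summed to 101.1, 175.0 and 179.9 CPM in CD38-positive and 114.3, 194.3 and 115.5 CPM in CD38-negative replicates, so that the groups overlapped and the CD38-positive library was the lower one in pairs 1 and 2. Tie1, Egfl7 and Robo4 are also transcribed in HSCs and made up most of the sum. These 3 had fitted log2 differences of -0.12, 0.00 and -0.02, and they were set apart after their values were seen. Without them the other 9 summed to 19.5, 31.9 and 42.2 CPM in CD38-positive and 8.52, 14.8 and 17.4 CPM in CD38-negative replicates. Those groups did not overlap, but nothing is read from this, since the choice of markers followed the values. Among the 9, Kdr and Plvap are named for their mixed direction, at -1.11 in pair 2 and -0.41 in pair 1. Esam and Eng, the most abundant on the full list, had -0.22 and 0.11. Of the 14 tested on that list, 9 were higher and 5 lower. Tek and Emcn, named for their lower values, had -0.54 and -0.37. The part of endothelial RNA in the values of Clu, Vwf and Selp was not tested.

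The remaining marker lists are given by their sums and their leading genes. The 13 stromal markers summed to 194, 31.6 and 149.7 CPM in CD38-positive and 131, 38.9 and 42.6 CPM in CD38-negative replicates, and 0 of the 10 tested passed in edgeR. In DESeq2 2 passed, Sparc and Ccn2, the latter a matrix-associated growth factor gene with 22, 19 and 33 reads in CD38-positive and 0 in each CD38-negative library (adjusted p = 0.0679 in edgeR), and 2 genes had an unadjusted p-value under 0.05 in edgeR. Cxcl12, a chemokine gene of marrow stroma and the most abundant of the list, had a fitted log2 difference of 0.61. Its paired differences were 0.54, -0.92 and 2.15. Of the 10 tested, 7 had higher and 3 lower fitted values. Col1a1, a collagen gene chosen here after its values were seen, had -0.69 (adjusted p = 0.929 in edgeR). Its paired differences were -0.68, -0.44 and -0.80. Erythroid markers summed to 2651 to 9354 CPM in CD38-positive and 3815 to 7777 CPM in CD38-negative libraries, with a median of -0.24, and 0 of 10 genes passed in edgeR or DESeq2 or had an unadjusted p-value under 0.05. Hbb-bs and Hbb-bt had -0.19 and -0.26. Granulocyte and monocyte markers had a median of 0.14 (-0.10 without pair 1), and 0 of 14 passed in edgeR or DESeq2, with 1 at an unadjusted p-value under 0.05. S100a8, Ngp and Mmp8 had -0.12, -0.18 and 0.44. Plasma and B cell markers summed to 943 to 1419.7 CPM in CD38-positive and 1640.2 to 4123 CPM in CD38-negative libraries, and Igha passed in both tools, at -4.40 (adjusted p = 0.00246 in edgeR). Jchain, Igkc, Ighm and Xbp1 had -4.26, -3.07, -1.19 and 0.17.

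The HSC list held 13 genes, among them Cd34 and Cd48, whose products the sort selected against. Of the 13, 0 passed in edgeR or DESeq2, 5 had an unadjusted p-value under 0.05 (5.08% of all genes), and the median was 0.00. That median was -0.28 without pair 3 and 0.08 without pair 2. Cd38 itself, the sorted marker, was at 37.0, 46.3 and 58.3 CPM in CD38-positive and 24.2, 35.6 and 23.9 CPM in CD38-negative replicates, with a fitted log2 difference of 0.76 (adjusted p = 0.893 in edgeR). Its CD38-positive libraries stood in the same order as those of Clu, Vwf and Selp, lowest in pair 1 and highest in pair 3. This order was shared by 9 of the 13 genes on the HSC list, among them Slamf1, Procr and Mecom, and by 17.9% of all genes tested. Kit, Ly6a, Hlf, Ctnnal1 and Cd34 had -0.90, -0.50, -0.79, 0.46 and 0.04. The paired differences of Kit, Ly6a and Hlf were lowest in pair 2, at -2.34, -1.25 and -1.76. Kit was higher in the CD38-positive library of pair 3, at 0.24.

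**Figure D5:**
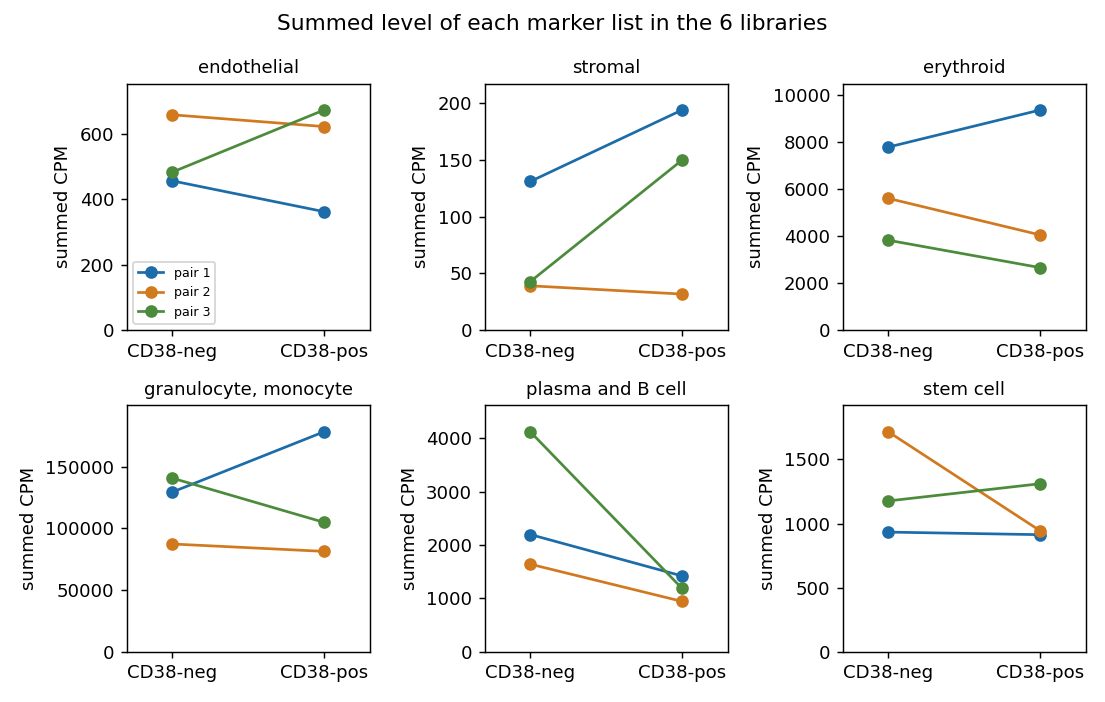
Summed CPM of 6 marker lists in the 6 libraries, on linear axes that start at 0, with the libraries of a pair joined by a line. The summed plasma and B cell markers are lower in the CD38-positive library of all 3 pairs, and the other 5 lists change in different directions between pairs.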

How the data were processed

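Per the submitters' processing notes, reads were processed with cutadapt, STAR and HTSeq 0.6.1p1 on GRCm38 (mm10); the strand setting and annotation release are not given in the sources used here. The authors deposited raw read counts per Ensembl gene, with 1 file for each of 6 libraries (3 CD38-positive, 3 CD38-negative). Symbols matched 49326 of 49585 identifiers, and positions and exon lengths (the union of all exons of a gene) came from GENCODE M21 on GRCm38, whose release may differ from that used for counting.

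Genes were kept with filterByExpr, scaled by TMM and tested with the quasi-likelihood F-test of edgeR 4.0.16 in R 4.3.3, in a model of pair plus population, with Benjamini-Hochberg adjustment over all 14785 genes and a threshold of 0.05. Log2 CPM used a prior count of 2, standard errors came from the quasi-F statistic, and 95% intervals from its degrees of freedom. The pairs come from the series' design text; deviations from the population means correlated at 0.34, 0.12 and 0.24 within pairs 1, 2 and 3. No library repeated another of its population, since chi-square per degree of freedom between them was at least 47.4. P-values of the fit with the pair as a block measure the spread of the difference between populations over pairs of these pools of 10 mice. Floors of 3 counts cover counting error only. The fit was run on counts simulated from its own model with planted changes, which checks the code and not its suitability for these data.

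The members and all 12 other lists (176 genes) were chosen with earlier results of these data known. Named besides the members are, per list, in each direction, up to 3 genes ranked by p among those with an unadjusted p-value under 0.05 and the same sign in 3 pairs, the 2 most abundant genes, and the 5 genes nearest in pattern to 5 members; others are named with the reason, and some genes that the rule names are not reported here. Alternatives were no block, DESeq2 1.42.0, its size factors, unscaled totals, other filters, and leaving out each pair; scaling of the list medians, and the aged HSC list without members and Cd38, were added after seeing the data.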

Additional observations from a re-analysis of the deposited data

How the results depend on the processing

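The count of genes past the threshold, 2 in the fit with the replicate block, was 0 without the replicate block (417 at an unadjusted p-value under 0.05), 0 with unscaled library totals (595), 7 with DESeq2 size factors, 11 in DESeq2, 13 with a mean of at least 10 counts and 80 with no filter, and leaving out a pair gave 2 to 41. The count of members past the threshold, 1, was 0 without the replicate block (3 at an unadjusted p-value under 0.05), 0 with unscaled library totals (3), 2 in DESeq2 and 2 with no filter, and leaving out a pair gave 0 to 2; the members called were Clu alone or Clu and Vwf. The cause of these changes was not tested. Clu, Vwf, Selp and Gp9 were higher in CD38-positive cells under each of their 9 alternatives. With unscaled library totals Itga2b and Cd9 changed sign, to -0.01 for both. When a pair was left out, the log2 fold change ranged from -0.01 to 0.04 for Itga2b, from -0.52 to 0.34 for Itgb3, from -1.16 to 0.13 for Pf4, from -0.05 to 1.15 for Gp1bb and from -0.14 to 0.11 for Cd9. Of the list medians, that of the aged HSC genes without the members was 0.16 to 0.42 and that of the megakaryocyte regulators was -0.30 to -0.09 when a pair was left out, both on the same side of 0 under all 7 of their alternatives. Other list medians changed sign, besides those given above: to -0.05 without pair 3 for stromal markers, to 0.02 without pair 2 for plasma and B cell markers and to 0.01 without the replicate block for platelet signalling genes. Depth sets a floor of 3 counts, or at most 0.179 CPM on unscaled library totals. That floor covers counting error only and not the spread between libraries.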
